A study of Bos taurus with 72 samples.

Results

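The 7 genes described here are mitochondrially encoded subunits of the respiratory chain, followed in blood of the same cattle over 3 stages in a feedlot. They were taken from the 24616 genes of the count table by their bovine Ensembl identifiers, which are ENSBTAG00000043558 for ND1, ENSBTAG00000043561 for COX1, ENSBTAG00000043556 for COX2, ENSBTAG00000043584 for ATP6, ENSBTAG00000043560 for COX3, ENSBTAG00000043563 for ND5 and ENSBTAG00000043550 for CYTB. The rule uses identifiers and no measured value. The symbols came with the list of identifiers, since the count table holds identifiers only, and all 7 symbols stand among the 13 protein-coding genes of the bovine mitochondrial genome in RefSeq. Along that genome their order is ND1, COX1, COX2, ATP6, COX3, ND5 and CYTB. Whole blood of 24 male beef cattle was sampled at the stages named entry, pulled and close-out, which gave 24 libraries per stage and 72 in all. The study's title names bovine respiratory disease as its subject. All animals were sampled at all 3 stages and no separate healthy group was analysed here, so stage also carries age and time on feed. Breed, age, diagnosis, treatment and the days between samplings are not given in the labels. Per the labels' protocols, blood was stabilised in PAXgene tubes, only RNA above a set integrity was sequenced, and libraries were made from poly-A selected RNA.

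The mitochondrial genome is a small circle of DNA that is transcribed from both strands into long precursor RNAs, which are cut at the tRNAs that lie between most genes and then polyadenylated. Its protein-coding genes all encode membrane subunits of the machinery that makes ATP. ND1 and ND5 belong to complex I, which takes electrons from NADH, CYTB to complex III, COX1, COX2 and COX3 to complex IV (cytochrome c oxidase), and ATP6 to the proton channel of ATP synthase. The subunits of these complexes that the mitochondrial genome does not encode are encoded in the nucleus. Mature red cells of cattle have no mitochondria, whereas platelets, lymphocytes and monocytes carry them and neutrophils carry few. In whole blood, fewer cells of a type and less RNA per cell cannot be told apart.

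Library totals ran from 8.24 to 29.1 megareads (M), with a median of 17.2 M, and stage means were 17.8 ± 4.36, 17.0 ± 3.87 and 17.2 ± 4.28 M at entry, pulled and close-out (SD, n = 24). The lowest count of any member in any library was 664, for ND5, and all 7 members passed the filter on low counts. The library labelled pulled of animal 9 matched animal 11 (Pearson r = 0.957 over 100 genes that tell the animals apart) and not its own animal (r = -0.03). Its counts differed from those of the entry library of animal 11 by a chi-square of 1.46 per degree of freedom, against 29.1 or more in every other of the 2556 pairs of libraries. For animal 12, the library with the label pulled resembled no animal closely (r = 0.140 with its own). The other 22 pulled libraries all matched their own animal best, at 0.844 or more. Both doubted libraries were kept under their labels, and values without them are given for some results. Stage means, ranges and ratios between members include them. At entry the animals also fell into 2 sets, 6 animals with numbers above 100 in their library titles and 18 animals with numbers up to 98. The TMM scaling factor, which corrects library totals for composition, was 0.806 ± 0.0966 in the 6 and 1.14 ± 0.0876 in the 18 at entry (SD). This division is not a group of the study, was noticed in earlier results of these data, and what lies behind it is not given in the labels.

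Together the 7 genes took 3.07 ± 0.930% of all counts at entry, 1.67 ± 0.949% at pulled, then 2.67 ± 1.30% at close-out (SD, n = 24 each). At entry the sum was lowest at 0.664%, had a median of 3.11% and was highest at 4.87%. At pulled these values were 0.506%, 1.55% and 4.41%. At close-out they were 0.873%, 2.18% and 4.96%. The ranges of the 3 stages overlapped, yet 22 of 24 pulled libraries lay under the entry median. Pulled was the lowest of the 3 stages in 17 of 24 animals, entry in 3 and close-out in 4, and without animals 9 and 12 pulled was lowest in 16 of 22. Pulled was the highest stage in 1 animal only. The widest 95% Wilson interval of a single library's sum was 0.0222 percentage points, so counting error was small beside the spread between animals. With the 10 most abundant other genes taken out of the totals, the sums were 3.26 ± 0.991%, 1.79 ± 1.02% and 2.86 ± 1.41% at entry, pulled and close-out.

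**Figure D1:**
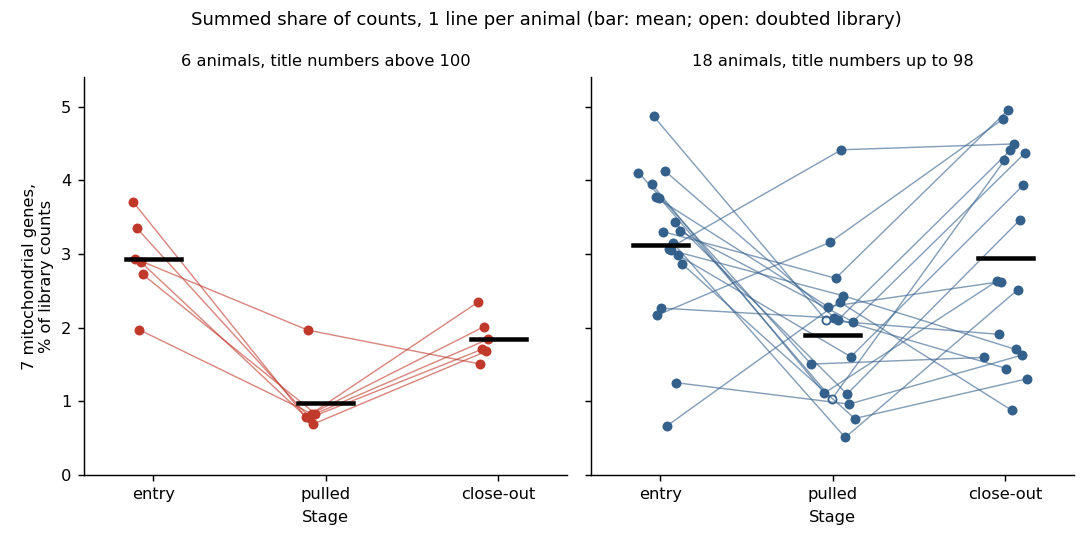
Summed counts of the 7 mitochondrial genes in percent of all counts (y axis) at entry, pulled and close-out (x axis), 1 line per animal, with the 6 animals with title numbers above 100 on the left and the 18 with numbers up to 98 on the right. Bars are stage means, 2.93, 0.978 and 1.85% in the 6 and 3.12, 1.90 and 2.94% in the 18, and open circles are the doubted libraries of animals 9 and 12.

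The close-out libraries were uneven. In 16 of them the sum was 2.63% or less, and in the other 8 it was 3.46% or more, the widest gap among the close-out libraries. Both at entry and at pulled, the widest gap set 1 library apart from the other 23. It was the entry library of animal 9 at 4.87%, and the pulled library of animal 17 at 4.41%.

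Among the complex I subunits, ND1, which lies where the complex takes up quinone, took 0.0331% of counts in the lowest entry library, 0.196% at the median and 0.362% in the highest, against 0.0290%, 0.0820% and 0.287% at pulled and 0.0485%, 0.109% and 0.305% at close-out. All but 1 of the pulled libraries were under the entry median, while the ranges overlapped almost completely. ND5, a proton-pumping subunit of complex I, took 0.00763%, 0.0342% and 0.0893% at entry, 0.00385%, 0.0108% and 0.0598% at pulled, and 0.0136%, 0.0287% and 0.0988% at close-out, in the same order of lowest, median and highest library. Of the pulled libraries, 9 lay under the lowest entry library, and all 24 close-out libraries lay at or above the pulled median.

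CYTB, the cytochrome b of complex III, took 0.0493%, 0.341% and 0.609% of counts at entry (lowest, median and highest library), 0.0367%, 0.168% and 0.598% at pulled, and 0.112%, 0.253% and 0.703% at close-out. Only 2 pulled libraries lay under the lowest entry library, although 21 of 24 lay under the entry median.

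In complex IV, COX1, the catalytic subunit, took 0.380%, 1.67% and 2.29% of counts at entry, 0.301%, 0.727% and 2.06% at pulled, and 0.444%, 1.13% and 2.46% at close-out. Of its pulled libraries 22 were under the entry median. COX2, which receives electrons from cytochrome c, took 0.0290%, 0.0964% and 0.227% at entry, 0.00593%, 0.0303% and 0.145% at pulled, and 0.0200%, 0.0567% and 0.137% at close-out. In 11 pulled libraries COX2 was under its lowest entry library, more than for any other member, and at pulled the highest library stood 24.4 times over the lowest. COX3, a core subunit that carries no redox centre, took 0.0870%, 0.500% and 0.840% at entry, 0.0839%, 0.302% and 0.773% at pulled, and 0.141%, 0.334% and 0.993% at close-out. Between pulled and entry it overlapped most of the members, as 1 pulled library lay under the lowest entry library and 19 lay under the entry median. At close-out 5 of its libraries lay over the highest pulled library.

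ATP6, part of the path of protons through ATP synthase, took 0.0621%, 0.334% and 0.545% of counts at entry, 0.0402%, 0.177% and 0.547% at pulled, and 0.0945%, 0.239% and 0.574% at close-out. Of its pulled libraries 23 lay under the entry median and 1 above the highest entry library. These shares are not corrected for gene length, so they do not rank the members by level.

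On the scale of log2 CPM, counts brought to a common library size with TMM scaling, the members had the same order of stages, with pulled lowest in the mean of all 7. ND1 averaged 10.69 ± 0.79 at entry, 9.72 ± 0.85 at pulled, then 10.26 ± 0.91 at close-out (SD, n = 24 each, as for all members). COX1 averaged 13.78 ± 0.61, 12.94 ± 0.83 and 13.47 ± 0.84 at those stages. COX2 averaged 9.77 ± 0.66, 8.38 ± 1.09 and 9.03 ± 0.93. The spread of COX2 at pulled was the widest of any member at any stage. ATP6 averaged 11.55 ± 0.75, 10.61 ± 1.02 and 11.35 ± 0.94. COX3 averaged 12.12 ± 0.80, 11.48 ± 0.99 and 12.01 ± 0.95. ND5 averaged 8.35 ± 0.79, 7.00 ± 1.04 and 8.30 ± 1.07. The means of ND5 at close-out and at entry differed by far less than its spread. CYTB averaged 11.52 ± 0.89, 10.62 ± 1.07 and 11.43 ± 0.95.

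**Figure D2:**
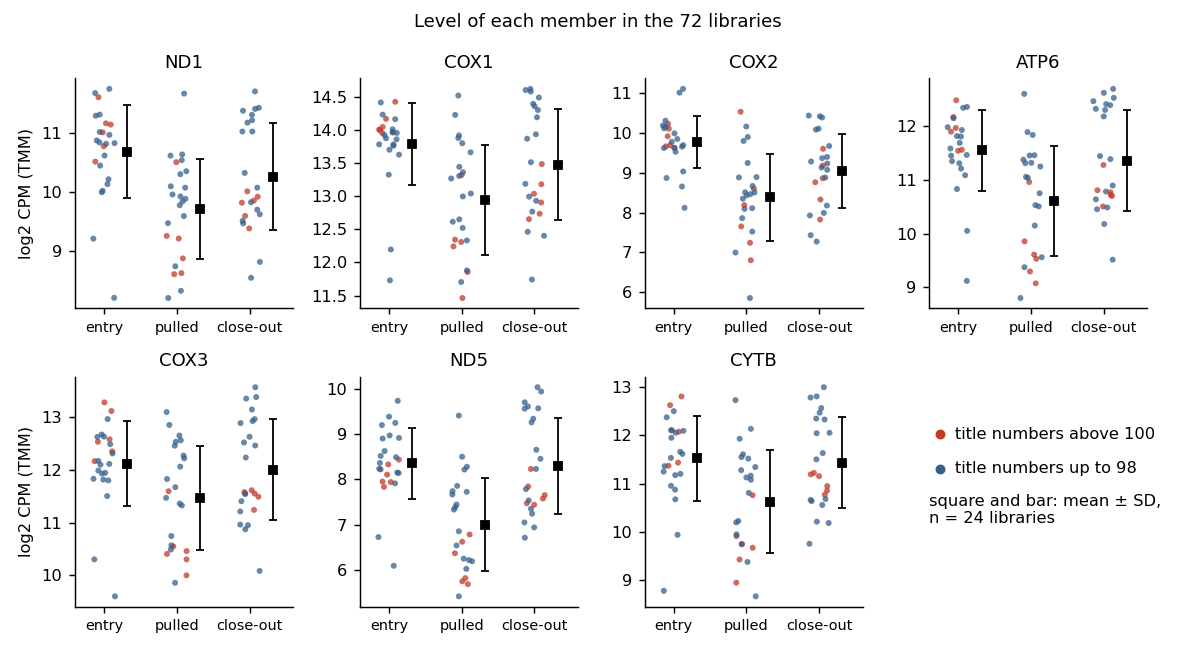
Level of each of the 7 members as log2 CPM after TMM scaling (y axis) in the 24 libraries of each stage (x axis), coloured by the set of animals, with squares and bars for the mean ± SD. In all 7 panels the pulled mean is the lowest of the 3, as with ND5 at 8.35, 7.00 and 8.30 for entry, pulled and close-out.

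Between pulled and entry all 7 members fell. The comparison asks what changed in blood between arrival and the time when animals were pulled, and it was tested with edgeR's quasi-likelihood test with the animal as a block, adjusted by Benjamini-Hochberg over 12655 genes. Of all genes tested, 21.9% were called lower and 20.2% higher, so a call by itself is common here. With library totals only, 35.9% were called lower and 12.4% higher, the median of all genes was -0.19, and all 7 members were again called lower, from -1.48 for COX2 to -0.80 for COX3. The median log2 fold change was -0.96 over the members and -0.03 over all genes tested. The members share a genome and precursor RNAs, so their 7 calls are not 7 independent observations.

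Over all 24 animals COX2 and ND5 fell most, by amounts that differ by less than their standard errors. COX2 was at -1.34 in log2 fold change (SE 0.24, adjusted p = 3.75e-05 in edgeR), 39.5% of its entry level, and was lower at pulled in 20 of 24 animals. ND5 fell to 40.0% of its entry level (log2 fold change -1.32, SE 0.23, adjusted p = 2.71e-05 in edgeR) and was lower in 22 of 24 animals, the highest number among the members. ND1 fell by 1.01 in log2 terms (SE 0.21, adjusted p = 0.000236 in edgeR) and was lower in 20 animals. ATP6 fell by 0.96 (SE 0.23, adjusted p = 0.00132, lower in 18), CYTB by 0.94 (SE 0.27, adjusted p = 0.00570, lower in 17) and COX1 by 0.85 (SE 0.20, adjusted p = 0.00123, lower in 18) in the same edgeR model. Over all animals COX3 had the smallest fall and the weakest call, at -0.68 (SE 0.26, edgeR adjusted p = 0.0298), and was lower in 15 of 24 animals. Without the doubted pulled libraries its adjusted p in edgeR was 0.0532 (22.3% of all genes called lower), and without animal 2, 4, 6 or 8 it lay between 0.0521 and 0.0559. The calls of the other 6 members held with each animal left out in turn and without the doubted libraries.

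**Figure D3:**
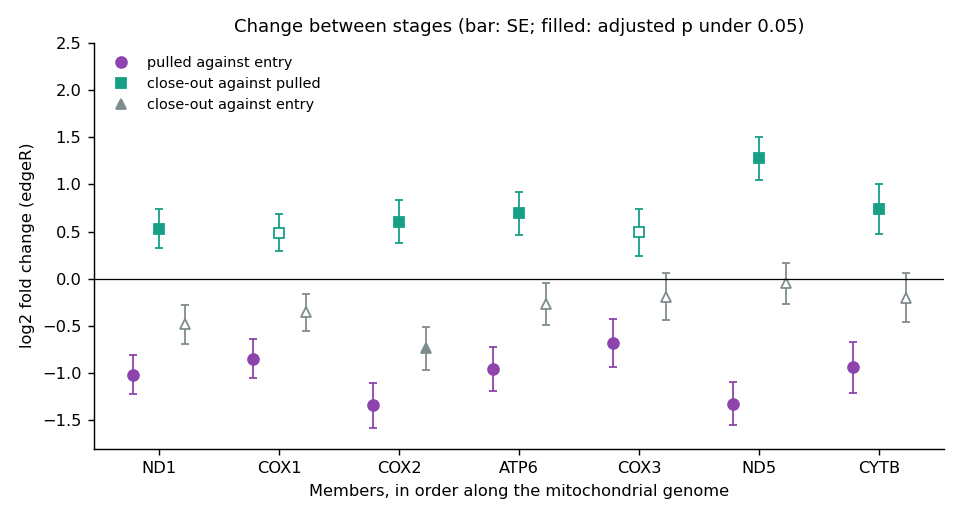
Log2 fold change of each member in edgeR (y axis) for pulled against entry, close-out against pulled and close-out against entry, members ordered along the mitochondrial genome (x axis), with SE bars. Filled markers have an adjusted p under 0.05: all 7 members lie below 0 for pulled against entry, all 7 lie above 0 for close-out against pulled with 5 past the threshold, and COX2 alone is past it for close-out against entry.

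The summed share followed the same direction in most animals. It was lower at pulled than at entry in 21 of 24 animals, with a mean change of -1.40 ± 1.35 percentage points (SD, n = 24), and in 19 of the 22 animals without animals 9 and 12 (mean -1.27). The exceptions were animal 16 with 2.35% at pulled against 0.664% at entry, animal 17 with 4.41% against 3.07%, and animal 11 with 3.16% against 2.17%. The entry library of animal 16 was the lowest of its stage. Taken gene by gene in log2 CPM, all 7 members were lower at pulled in 14 animals and higher in animal 17, and 9 animals were mixed. Without animals 9 and 12, all 7 were lower in 12 of 22.

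**Figure D4:**
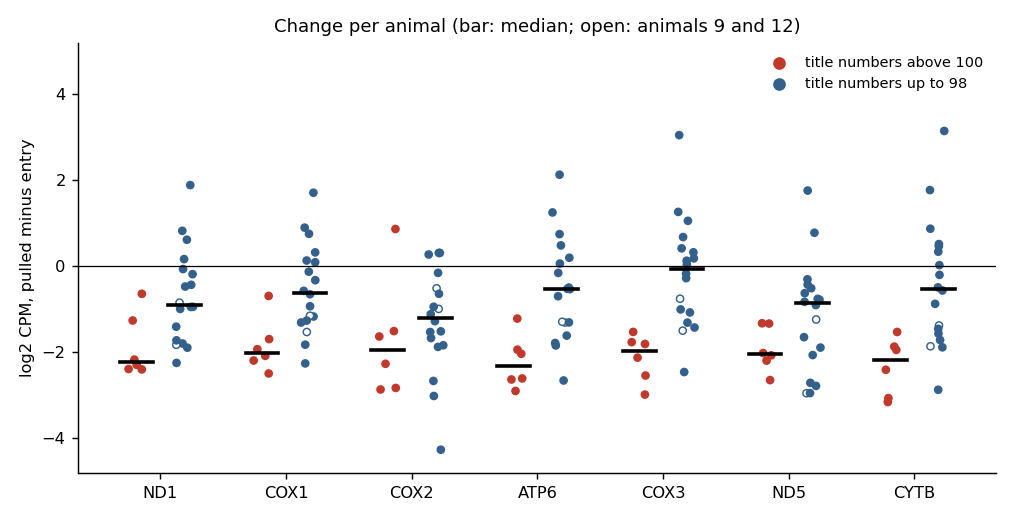
Change of each member within each animal, as log2 CPM at pulled minus log2 CPM at entry (y axis), 1 point per animal, for the 6 animals with title numbers above 100 (red) and the 18 with numbers up to 98 (blue) at each member (x axis). Bars are medians and open circles are animals 9 and 12: in the 6 every point lies below 0 except 1 for COX2, while in the 18 each member has points on both sides.

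The fall at pulled differed in size between the sets of animals for 5 of 7 members, as it did for most genes tested. In the 6 animals with title numbers above 100 the summed share was 0.978 ± 0.486% at pulled against 2.93 ± 0.589% at entry (SD, n = 6), and it was lower in 6 of 6. In the 18 animals with numbers up to 98 it was 1.90 ± 0.960% at pulled against 3.12 ± 1.03% at entry (SD, n = 18), and it was lower in 15 of 18. A model of the 6 animals alone called all 7 members lower, with log2 fold changes from -2.32 for CYTB to -1.60 for COX2 (each adjusted p in edgeR at most 0.0295, 19.6% of all genes called lower). A model of the 18 alone called 3, which were ND1 at -0.70, COX2 at -1.25 and ND5 at -1.11 (each adjusted p in edgeR at most 0.00836, 37.0% of all genes called lower). There COX1 had -0.48 (edgeR adjusted p = 0.0547), ATP6 -0.49 (0.0812), CYTB -0.41 (0.219) and COX3 -0.13 (0.678). By log2 CPM, COX3 was lower at pulled in 6 of the 6 and in 9 of the 18 animals, and ND5 in 6 of the 6 and 16 of the 18. The mean change in log2 CPM was -2.12 for COX3 and -1.70 for COX2 in the 6, against -0.15 and -1.28 in the 18. The order of the falls over all animals was thus not that of the 6.

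The difference between the sets in the pulled minus entry change was tested as an interaction, 6 animals minus 18. It was past the threshold for COX3 at -1.98 (SE 0.49, edgeR adjusted p = 0.000523), CYTB at -1.89 (SE 0.54, 0.00203), ATP6 at -1.69 (SE 0.46, 0.00125), COX1 at -1.32 (SE 0.42, 0.00476) and ND1 at -1.11 (SE 0.44, 0.0226). It was not past it for ND5 at -0.80 (SE 0.50, 0.154) or COX2 at -0.33 (SE 0.55, 0.609). Of all genes tested, 68.4% were called in this interaction, 32.3% lower and 36.0% higher, so a call was common among all genes. The 5 members called were all lower. The TMM factors of the sets differed at entry, and the calls changed with the scaling. With library totals only, COX3 at -1.36, CYTB at -1.27 and ATP6 at -1.08 were called (each adjusted p in edgeR at most 0.0252), and COX1 at -0.72 (0.0943) and ND1 at -0.51 (0.270) were not. That scaling moved the median of this difference over all genes to 0.65, against 0.03 with TMM. The members' own median moved to -0.72, against -1.32 with TMM. Scaling shifts all genes of a library alike, so the gap between these medians stayed nearly the same and is no test of the difference. With library totals only, the split of calls over all genes was 12.7% lower and 52.5% higher.

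Between close-out and pulled, all 7 members had a log2 fold change above 0 and 5 of 7 were called higher. Of all genes tested, 13.3% were called higher and 13.9% lower. The comparison asks how blood differed late in the feeding period from the time of pulling. It shares the pulled libraries with the comparison above, so low values at pulled enter both. The median log2 fold change was 0.61 over the members and -0.01 over all genes tested. With library totals only, all 7 members were called higher, beside 22.0% of all genes called higher and 6.89% lower and a median of all genes of 0.13. ND5 rose most, by 1.27 in log2 terms (SE 0.23, adjusted p = 2.74e-05 in edgeR), to 242% of its pulled level, and was higher in 21 of 24 animals. CYTB rose by 0.74 (SE 0.26, edgeR adjusted p = 0.0314), ATP6 by 0.69 (SE 0.23, adjusted p = 0.0192), COX2 by 0.61 (SE 0.23, adjusted p = 0.0453) and ND1 by 0.53 (SE 0.20, adjusted p = 0.0455). They were higher at close-out in 18, 18, 19 and 17 of 24 animals. COX1 at 0.49 (SE 0.20, edgeR adjusted p = 0.0622) and COX3 at 0.49 (SE 0.25, 0.144) did not pass. COX1 did pass in limma-voom (adjusted p = 0.0464) and in DESeq2 (adjusted p = 0.0408).

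The calls of ND5 and ATP6 held with each animal left out in turn. The others were near the threshold. ND1 was lost in 17 of the 24 fits that left out 1 animal, COX2 in 15 and CYTB in 6, so that 2 to 7 members were called. With animal 8, 12, 15, 19 or 20 left out 2 were called, with animal 2, 4, 5, 6, 7, 10, 14, 21, 22 or 23 left out 3, and with animal 16 left out all 7. Without the doubted pulled libraries 3 were called, beside 12.8% of all genes called higher, which were COX2 (0.63, edgeR adjusted p = 0.0445), ATP6 (0.66, 0.0349) and ND5 (1.23, 4.98e-05). Within the 18 animals ND5 alone was called (1.20, edgeR adjusted p = 0.00204, 13.6% of all genes called higher). Within the 6 animals 4 were called (1.14% of all genes called higher), which were ATP6 at 1.05, COX3 at 0.94, ND5 at 1.51 and CYTB at 1.25 (each adjusted p in edgeR at most 0.0412). The interaction of the sets called 0 of 7 members and 0% of all genes for close-out minus pulled. At an unadjusted p under 0.05 it was 0 of 7 in edgeR with 261 genes in all, and limma-voom also called 0 members.

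In summed share, close-out was above pulled in 19 of 24 animals, by a mean of 0.995 ± 1.21 percentage points (SD, n = 24), and in 18 of 22 without animals 9 and 12. By log2 CPM all 7 members were higher at close-out in 16 animals, lower in animals 9, 13 and 16, and mixed in 5. The pulled library of animal 9 is doubted, and without animals 9 and 12 these numbers were 15, 2 and 5 of 22.

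Between close-out and entry, COX2 fell and no other member passed the test. COX2 averaged 0.0632 ± 0.0349% of counts at close-out and 0.100 ± 0.0468% at entry (SD, n = 24). Its log2 fold change was -0.73 (SE 0.23, adjusted p = 0.0174 in edgeR), and it was lower at close-out in 17 of 24 animals. Of all genes tested, 12.0% were called lower and 10.2% higher, and 8.48% and 11.9% with library totals only. The log2 fold changes of the other members, with 95% intervals, were -0.48 for ND1 (-0.89 to -0.07, edgeR adjusted p = 0.0772), -0.36 for COX1 (-0.75 to 0.04), -0.27 for ATP6 (-0.72 to 0.18), -0.20 for CYTB (-0.72 to 0.32), -0.19 for COX3 (-0.69 to 0.31) and -0.05 for ND5 (-0.49 to 0.39). The intervals are for single members and are not adjusted. The median over the members was -0.27, against -0.02 over all genes tested. The summed share was higher at close-out in 11 animals and lower in 13, with a mean change of -0.401 ± 1.36 percentage points (SD, n = 24). The COX2 call was lost in the fit with no block for the animal (edgeR adjusted p = 0.0745).

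In the 6 animals with title numbers above 100 the summed share was 1.85 ± 0.298% at close-out against 2.93 ± 0.589% at entry (SD, n = 6), lower in 5 of 6. There ND1, COX1, ATP6, COX3 and CYTB were called lower, at -1.27, -1.11, -1.15, -1.19 and -1.07 (each adjusted p in edgeR at most 0.00594, 19.5% of all genes called lower). COX2 had -1.03 (edgeR adjusted p = 0.105) and ND5 -0.42 (0.0894). In the 18 the share was 2.94 ± 1.39% at close-out against 3.12 ± 1.03% at entry (SD, n = 18), lower in 8 of 18, and COX2 alone was called (-0.63, edgeR adjusted p = 0.0267, 34.2% of all genes called lower). The interaction called the same 5 members as between pulled and entry, from -1.41 for COX3 to -1.04 for COX1 (each adjusted p in edgeR at most 0.0383), beside 64.6% of all genes tested, 29.7% lower and 34.9% higher. With library totals only it called 0 of 7, and 8.53% of genes lower and 53.9% higher. The members' median was then -0.43 and that of all genes 0.68, against -1.07 and 0.04 with TMM. The gap between these medians was -1.11 with either scaling, which follows from a shift common to all genes of a library and is no test.

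At the stages themselves, the sets (6 animals against 18) differed for 0 of 7 members at entry, where 73.8% of 11423 genes were called, 37.9% lower and 35.9% higher. At an unadjusted p under 0.05 edgeR gave 0 members and 75.5% of genes, and limma-voom gave 1 member and 75.2% of genes and called 0 members. Log2 differences with TMM ran from -0.57 for ND5 to 0.59 for COX3. With library totals only, ND5 was called lower in the 6 (-1.01, edgeR adjusted p = 0.00815), and with RLE scaling COX3 was called higher. The share of all genes called at entry under these scalings was not computed, so neither call is read as particular to the member. At pulled edgeR called 0 of 7 members and 0% of 11163 genes. At an unadjusted p under 0.05 there were 5 members, all lower, in edgeR, beside 19.1% of genes, 7.09% lower and 12.0% higher. Limma-voom also gave 5, beside 18.5% of genes. The edgeR log2 differences ran from -1.38 for ND5 to 0.03 for COX2. Without the doubted libraries COX3 was called there (-1.43, edgeR adjusted p = 0.0374), and so were 2.77% of 11085 genes lower and 7.06% higher, 9.83% in all. At close-out edgeR called 0 of 7 and 0.0175% of 11417 genes, with log2 differences from -1.15 for ND5 to -0.55 for COX2. At an unadjusted p under 0.05 it gave 6 members, all lower, beside 9.37% of genes, 4.62% lower and 4.75% higher. Limma-voom called 0 members there as well and gave 0 at an unadjusted p under 0.05, beside 9.77% of genes. All 8 close-out libraries with a summed share of 3.46% or more were among the 18.

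Relative to each other, the members kept some proportions more tightly than others. As a description, the log2 ratio of ATP6 to CYTB had an SD of 0.25 over the 72 libraries and that of ND1 to ATP6 0.27. The ratio of COX3 to CYTB had an SD of 0.29, as had that of ATP6 to COX3, a pair that lies side by side on the genome. The widest ratios all held COX2, with an SD of 0.87 against COX3, 0.84 against ND5 and 0.82 against CYTB. The ratio of COX1 to COX2, also side by side among the 7 on the genome, had an SD of 0.69. After each animal's own mean was subtracted, ATP6 had the highest Pearson r with the mean log2 CPM of the other 6 members (0.982 over 72 libraries) and COX2 the lowest (0.734), and ND5 had 0.884. Within a library all members share its scaling and depth, and 3 libraries come from each animal.

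ND5 lost ground within the sum at pulled and regained it at close-out. It made up 1.25 ± 0.418% of the 7-gene sum at entry, 0.872 ± 0.299% at pulled, then 1.39 ± 0.297% at close-out (SD, n = 24). It was lower at pulled than at entry in 20 of 24 animals and higher at close-out than at pulled in 22 of 24. Without animals 9 and 12 these numbers were 19 and 21 of 22. A part of the sum does not depend on library scaling, as numerator and denominator come from the same counts. The first step was seen in 17 of 18 animals with title numbers up to 98, with 0.889 ± 0.312% at pulled against 1.40 ± 0.357% at entry. In the 6 others ND5 made up 0.821 ± 0.277% at pulled against 0.767 ± 0.0703% at entry, and was lower in 3 of 6. Whether the sets differ in this ratio was not tested.

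COX3 went the other way, with 16.2 ± 2.29% of the sum at entry, 18.8 ± 3.32% at pulled, then 18.0 ± 2.16% at close-out. Its part of the sum was higher at pulled than at entry in 18 of 24 animals, 16 of 18 and 2 of 6 by set. Without animals 9 and 12 it was higher in 17 of 22. COX2 made up 3.43 ± 1.48% at entry, 2.48 ± 1.44% at pulled, then 2.46 ± 0.995% at close-out. Unlike the mean of ND5, that of COX2 was nearly the same at close-out and at pulled. COX1 held 51.2 ± 4.81%, 51.5 ± 5.43% and 49.3 ± 3.85% of the sum at the 3 stages, CYTB 10.9 ± 2.39%, 10.6 ± 2.54% and 12.1 ± 1.76%, ATP6 10.9 ± 1.04%, 10.3 ± 1.59% and 11.4 ± 1.33%, and ND1 6.06 ± 1.09%, 5.55 ± 1.00% and 5.36 ± 0.768%. Reads in the stretch where ATP6 and COX3 lie next to each other, and reads shared with nuclear copies of mitochondrial DNA, cannot be traced from these counts.

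**Figure D5:**
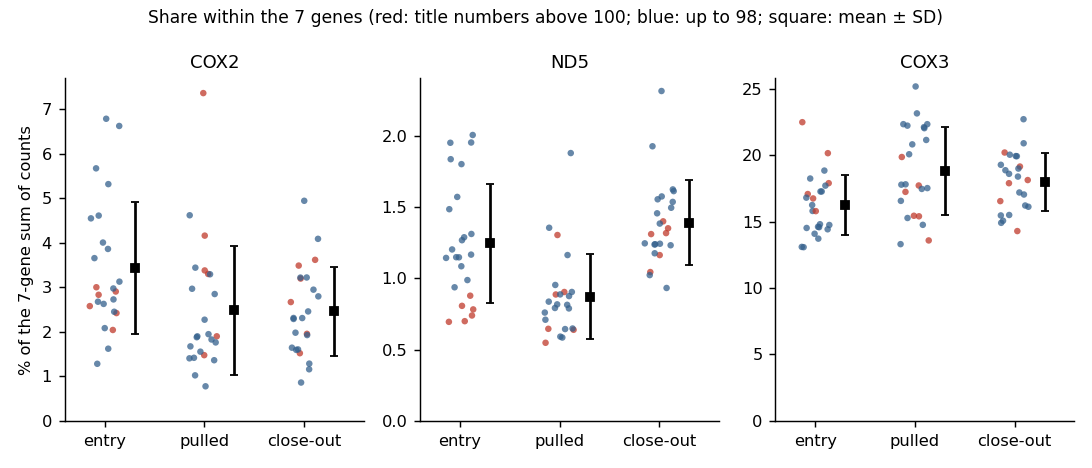
Percent of the 7-gene sum of counts (y axis) taken by COX2, ND5 and COX3 in the libraries of each stage (x axis), with the 6 animals with title numbers above 100 in red, the other 18 in blue, and squares with bars for the mean ± SD (n = 24). ND5 is lowest at pulled, with means of 1.25, 0.872 and 1.39% for entry, pulled and close-out, and COX3 is highest there at 18.8%.

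Outside the 7 genes, the pair most like them in the table followed the same course. Over 72 libraries, after subtracting each animal's mean and among 10388 genes, ENSBTAG00000043577 had a Pearson r of 0.983 with the members' mean log2 CPM and ENSBTAG00000043546 one of 0.965. ENSBTAG00000043577 averaged 10.42 ± 0.80 log2 CPM at entry, 9.43 ± 1.03 at pulled, then 10.25 ± 1.04 at close-out (SD, n = 24). ENSBTAG00000043546 averaged 7.88 ± 0.80, 6.64 ± 1.09 and 7.77 ± 1.07. At the other end, ENSBTAG00000016336 (r = -0.770) averaged 7.48 ± 0.20, 7.71 ± 0.22 and 7.51 ± 0.27, and ENSBTAG00000013288 (r = -0.757) averaged 5.94 ± 0.16, 6.30 ± 0.28 and 5.81 ± 0.29. The genes most unlike the members thus moved over a far narrower range. The 4 were picked for this likeness, so their values are a description, and no table at hand names them. The identifiers ENSBTAG00000043577 and ENSBTAG00000043546 are numbered close to those of the members. Whether these genes also lie on the mitochondrial genome was not tested.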

How the data were processed

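Read counts per gene of 72 blood libraries, from 24 cattle at 3 stages, were taken as the authors deposited them, raw and with a column for each library. Per the submitters' processing notes, the tools were TopHat2 and HTSeq and the genome build was UMD3.1. For tool versions, annotation release and strand setting, the sources used here give nothing. Of 24616 genes in the table, 4766 were at 0 in every library, and 0 columns matched no sample.

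In R 4.3.3, the edgeR 4.0.16 filter for the stages left 12655 genes, which were scaled by TMM and fitted by quasi-likelihood with a term for each animal as the block. Calls have a Benjamini-Hochberg adjusted p under 0.05 over all genes kept. Standard errors were taken as the size of the log2 fold change over the root of F. Log2 CPM was computed with 2 as the prior count. Stages are paired by the labels' animal numbers. The labels do not say whether a library is a separate blood draw beyond its animal and stage, so p-values measure the spread between these libraries. In the fits with the block, this is the spread left after each animal's own level was taken out. Shares are member counts over all counts of a library, and their Wilson intervals cover counting error only. The number of counts is known for every value. The model was tested on simulated counts of 12655 genes, with 100 changed 1.5-fold and 100 changed 2-fold at pulled. Of these it called 58% and 82% for pulled against entry, with 2 false calls among 142. In the real data, 42.0% of genes were called in that comparison, far more than were changed in the simulation.

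Members and lists were chosen with earlier results of these data known, as were the sets of animals and the doubted libraries. The genes named are all 7 members and, by a fixed rule, the 2 genes with the highest and the 2 with the lowest correlation to the members' mean, among genes whose log2 CPM averaged 1 or more. Lists of nuclear respiratory chain genes, other mitochondrial genes and blood cell markers were written by symbol. They were not analysed here, because 0 of the identifiers matched the gene table at hand (assembly ARS-UCD2.0), so the part of blood cell types in any result was not tested. Gene lengths of the build were not used here. Alternatives were no block, RLE scaling, library totals only, totals without the members, keeping all genes, keeping genes with 1 CPM or more in 24 libraries, fits of the compared stages alone, DESeq2 1.42.0, limma-voom (limma 3.58.1), each animal left out, no doubted libraries, and each set of animals alone. The fits of the sets at pulled without the doubted libraries, and the shares within each set, were added after seeing the data.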

Additional observations from a re-analysis of the deposited data

Results flagged for a closer look

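For 10 results, the change of a member between stages was not alike in the set of 6 animals (title numbers above 100) and the set of 18 (numbers up to 98) (edgeR interaction, adjusted p under 0.05, 6 minus 18, log2 scale). Between pulled and entry the differences were -1.11 for ND1, -1.32 for COX1, -1.69 for ATP6, -1.98 for COX3 and -1.89 for CYTB. Between close-out and entry they were -1.07 for ND1, -1.04 for COX1, -1.23 for ATP6, -1.41 for COX3 and -1.23 for CYTB. The same test called 68.4% and 64.6% of all genes in these contrasts, so calls were common among all genes. The TMM factors of the sets also differed at entry (0.806 ± 0.0966 in the 6 against 1.14 ± 0.0876 in the 18, SD). With library totals in place of TMM, ATP6, COX3 and CYTB were past the threshold between pulled and entry and 0 members between close-out and entry. That scaling put the median over all genes at 0.65 and 0.68 in these contrasts, against 0.03 and 0.04 with TMM. It put the members' median at -0.72 and -0.43, against -1.32 and -1.07 with TMM. Scaling shifts all genes of a library alike, so the gap between the medians stayed nearly the same and is no test of the difference.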

How the results depend on the processing

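Without the block that pairs stages by animal, pulled against entry gave 6 members lower instead of 7 (COX3 had an adjusted p of 0.0994), close-out against pulled 3 higher instead of 5, and close-out against entry 0 lower instead of 1. No other call changed with the block. Between pulled and entry, COX3 was past the threshold in 8 of the 12 alternatives other than leaving out 1 animal in turn. Leaving out the doubted libraries was among those that lost it (edgeR adjusted p = 0.0532). For close-out against pulled, RLE scaling, no low-count filter and leaving out the doubted pulled libraries each gave 3 higher, and the 18 animals alone 1. Limma-voom and DESeq2 gave 6 there (COX1 added), and library totals only and the fit of the 2 stages alone 7. Each animal left out in turn gave 2 to 7 there, 6 to 7 for pulled against entry and 1 for close-out against entry. The 18 animals alone gave 3 lower for pulled against entry. For close-out against entry, library totals only and DESeq2 each gave 2 lower (ND1 and COX2), and the 6 animals alone gave 5. With library totals only, the interaction of the sets called 3 members lower in pulled minus entry and 0 in close-out minus entry, where TMM gave 5 each, and 1 member (ND5) lower at entry. RLE scaling called 1 member (COX3) higher in the 6 at entry, and leaving out the doubted libraries 1 (COX3) lower at pulled. In these edgeR, DESeq2 and limma-voom fits, no called member reversed its direction. In limma-voom, 3467 of 12655 genes were called in either direction for close-out against pulled, beside 3446 in edgeR with TMM. The share of all genes called was not computed for RLE scaling, DESeq2, no block, no low-count filter or the fit of 2 stages. It was also not computed for each animal left out, or for the sets at entry with library totals only. Member counts under these settings are therefore no result about the members alone. The cause of each change in the calls was not tested. Taking the members out of totals and scaling moved no count. The depth of at least 8.24 megareads left counting error small beside the spread between animals.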
